A study of Saccharomyces cerevisiae with 8 samples.

Results

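The genes described here encode the enzymes that carry ethanol to acetyl-CoA in budding yeast, Saccharomyces cerevisiae. They are 4 alcohol dehydrogenase genes (ADH1, ADH2, ADH3 and ADH5), 3 aldehyde dehydrogenase genes (ALD4, ALD5 and ALD6), 2 acetyl-CoA synthetase genes (ACS1 and ACS2) and the CoA transferase gene ACH1. The members were chosen by gene name, and 10 of 10 were found among the 6668 genes listed for every library. The groups were the msp1 pex19 double deletion, the msp1 deletion, the pex19 deletion and wild type, all in the W303 strain background. Each genotype had 1 library of ribosome-protected fragments (RPF, the pieces of mRNA covered by ribosomes) and 1 RNA-seq library, 8 libraries in all. The carbon source of all cultures was 2% glycerol plus 2% ethanol in SC medium, and cells were collected 16 h after seeding at an optical density of 0.1, once it reached 2 to 2.5. MSP1 encodes an ATPase that extracts misplaced tail-anchored proteins from the outer mitochondrial membrane, and PEX19 encodes the import receptor for peroxisomal membrane proteins. The study's title gives its subject as mitochondrial dysfunction in Zellweger spectrum disorder. Since a genotype had 1 library in each assay, neither a replicate spread nor a test can be given. The intervals below cover counting error only and say nothing of variation between cultures.

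When glucose is absent, yeast oxidises ethanol to acetaldehyde, acetaldehyde to acetate, and acetate is joined to coenzyme A. Acetyl-CoA then enters the TCA cycle, the glyoxylate cycle and gluconeogenesis. The steps are run by isoenzymes that differ in compartment and regulation. ADH1 encodes the abundant cytosolic dehydrogenase known for making ethanol during fermentation, and ADH2 the cytosolic enzyme known for ethanol oxidation, whose gene is repressed by glucose. ADH3 encodes the mitochondrial alcohol dehydrogenase and ADH5 a minor isoenzyme. ALD4 and ALD5 encode mitochondrial aldehyde dehydrogenases and ALD6 the cytosolic one. ACS1 is the glucose-repressed acetyl-CoA synthetase gene and ACS2 the one expressed also on glucose. ACH1 encodes a mitochondrial enzyme that moves CoA between acyl groups and acetate. Adr1 and Cat8 are the transcription activators known for switching on ADH2, ACS1 and other genes of this route once glucose is gone.

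Library totals were 1101458 to 2300792 reads for RPF and 4694951 to 5367091 for RNA-seq, lowest among RPF in the msp1 deletion. MSP1 and PEX19 were listed at 1, the lowest value in the files, in each strain that lacks them, and at 104 to 731 reads where they are present. A total of 3737 genes had a mean of at least 50 reads over the 4 libraries of each assay. All 10 members passed that minimum, with the lowest single count at 66 reads, for ADH5 in the msp1 RPF library.

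The coding sequences of ADH1 and ADH2 decide how well short fragments can be told apart, so a stretch of each is shown. ADH1 (YOL086C) lies at chrXV:159548-160594 on the minus strand and ADH2 (YMR303C) at chrXIII:873291-874337 on the minus strand, in build R64. Both have 1 coding exon of 1047 bases, and they matched at 930 aligned bases, an identity of 88.8%. Their longest identical run was 189 bases. It is shown with 8 bases more on each side, where capitals mark the bases that differ.
ADH1, chrXV:160206-160410: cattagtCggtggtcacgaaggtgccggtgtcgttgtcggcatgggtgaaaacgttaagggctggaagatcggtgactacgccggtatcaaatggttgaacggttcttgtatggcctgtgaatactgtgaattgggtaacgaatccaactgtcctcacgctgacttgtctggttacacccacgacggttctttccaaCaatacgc
ADH2, chrXIII:873949-874153: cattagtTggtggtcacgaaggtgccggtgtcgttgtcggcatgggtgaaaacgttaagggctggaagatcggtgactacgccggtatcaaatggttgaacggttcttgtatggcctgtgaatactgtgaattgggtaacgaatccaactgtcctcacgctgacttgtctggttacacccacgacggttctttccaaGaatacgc
No fragment inside that run can be assigned to either gene. The 60 bases that differ most are shown next, with 16 differences in capitals.
ADH1, chrXV:159868-159927: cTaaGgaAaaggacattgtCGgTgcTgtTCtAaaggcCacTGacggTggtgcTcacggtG
ADH2, chrXIII:873611-873670: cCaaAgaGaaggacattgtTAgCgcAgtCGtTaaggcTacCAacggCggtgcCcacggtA
Of the 1020 windows of 28 bases in each gene, 199 (19.5%) occurred again elsewhere in the nuclear genome. For the other members 0 windows of 28 bases were repeated. The labels give fragments of 19 to 33 bases in RPF and 19 to 40 in RNA-seq, and windows shorter than 28 bases were not searched. Fragments that short can be shared more often. The longest identical run was 23 bases for ADH3 with ADH5 and 20 for ACS1 with ACS2. The other pairs within a family had identities between 62.3% (ALD5 with ALD6) and 75.2% (ADH1 with ADH3). How reads that match both ADH1 and ADH2 were counted is a step that the sources used here do not describe, so the split between these genes is uncertain while their sum is less so. The reference is strain S288C, and differences of W303 from it are not considered.

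Upstream of the start codons, letters of both activators' motifs were sought in 500 bases on both strands. The core of the Adr1 site, TTGGAG, was found upstream of 2 members, ADH2 and ALD4, and in 18.5% of all 6000 windows of that length. The core of the carbon source response element bound by Cat8, which is CC and CCG with any 6 bases between them, was found for 5 members, ADH2, ADH3, ALD6, ACS1 and ACH1, and in 20.8% of all windows. Every match is shown with its surroundings on the gene's own strand. Capitals mark every letter of a match. In ADH2 the facing Adr1 cores form an inverted repeat 277 and 291 bases before the start codon, next to a response element core that reads on both strands.
ADH2, chrXIII:874599-874654: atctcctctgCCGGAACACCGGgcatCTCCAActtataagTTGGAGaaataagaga
ADH2, chrXIII:874795-874825: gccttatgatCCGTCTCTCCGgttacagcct
ADH3, chrXIII:434574-434604: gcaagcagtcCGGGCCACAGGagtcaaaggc
ALD4, chrXV:1039611-1039642: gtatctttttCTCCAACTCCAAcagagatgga
ALD6, chrXVI:432094-432124: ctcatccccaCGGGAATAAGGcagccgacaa
ALD6, chrXVI:432322-432352: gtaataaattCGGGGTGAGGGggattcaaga
ACS1, chrI:45427-45457: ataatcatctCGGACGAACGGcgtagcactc
ACS1, chrI:45373-45403: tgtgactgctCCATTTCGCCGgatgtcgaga
ACS1, chrI:45223-45253: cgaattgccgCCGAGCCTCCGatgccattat
ACH1, chrII:193679-193709: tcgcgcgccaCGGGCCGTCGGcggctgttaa
ACH1, chrII:193772-193810: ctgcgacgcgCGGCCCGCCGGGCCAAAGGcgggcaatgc
A match is a description of letters and not evidence of binding. ADH1, ADH5, ALD5 and ACS2 had neither core in these windows.

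Levels were compared between genes by the authors' TPM, which is scaled to gene length. ADH1 stood highest and ADH5 lowest in all 8 libraries. ADH1 had 3981, 3674, 5648 and 4142 TPM in RPF and 2124, 2126, 3192 and 1956 TPM in RNA-seq, in the double, msp1 and pex19 deletions and wild type. ADH5 had 45.3, 46.9, 45.6 and 38.5 TPM in RPF and 47.1, 38.8, 32.3 and 32.4 TPM in RNA-seq, in the same genotypes. In wild-type RPF the order was ADH1, ALD6, ALD4, ADH2, ACH1, ACS2, ADH3, ACS1, ALD5 and ADH5. Over the 4 genotypes the RPF ranges of ALD6 (1333 to 1962 TPM), ALD4 (1482 to 1800 TPM) and ADH2 (1267 to 1674 TPM) overlapped, and these genes changed places between libraries. ACH1 (1137 to 1383 TPM) overlapped ALD6 and ADH2 in range but lay below all 3 in each of the 4 libraries. The ranges of all other neighbours in RPF were apart, with ACS2 at 602 to 715 TPM, ADH3 at 330 to 413 TPM, ACS1 at 119 to 190.4 TPM and ALD5 at 79.9 to 90.9 TPM. In wild-type RNA-seq the order was ADH1, ALD4, ACH1, ALD6, ACS2, ADH2, ADH3, ALD5, ACS1 and ADH5. Here the ranges of ALD4, ACH1 and ALD6 met, though ACH1 was above ALD6 in 4 of 4 libraries and below ALD4 in 3. The ranges of ACS2 and ADH2 overlapped too, as did those of ALD5 and ACS1. ADH2 lay below ACS2 in wild-type RNA-seq, at 462 against 563 TPM, and above it in the other 3 genotypes. ACS1 lay below ALD5 in wild-type RNA-seq, at 114 against 127 TPM, and above it in the 3 deletions.

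**Figure D1:**
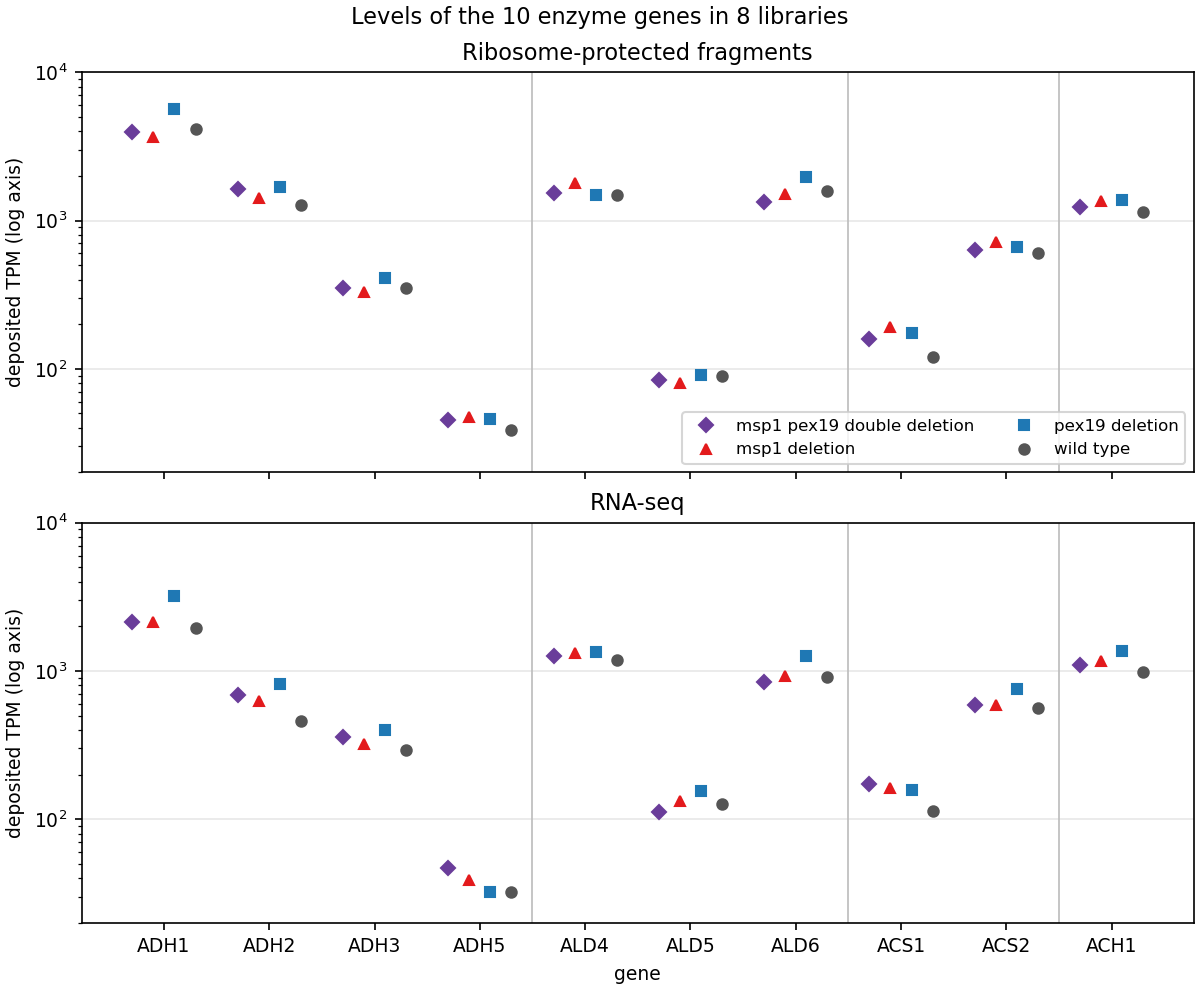
Deposited TPM (log axis) of the 10 genes in RPF (top) and RNA-seq (bottom), 1 point a library for the msp1 pex19 double deletion, the msp1 deletion, the pex19 deletion and wild type. ADH1 was highest, up to 5648 TPM in RPF, and ADH5 lowest, at 32.3 to 47.1 TPM over both assays.

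The glucose-repressed genes ADH2 and ACS1 were not the most abundant of their families. ADH2 made up 27.0%, 25.9%, 21.5% and 21.9% of the TPM of the 4 ADH members in RPF of the double, msp1 and pex19 deletions and wild type. In RNA-seq its share was 21.5%, 20.2%, 18.4% and 16.8%. ADH1 held 66.4% to 72.6% in RPF and 66.0% to 71.8% in RNA-seq, within the limit set by shared sequence. ADH3 held 5.30% to 6.03% in RPF and 9.0% to 11.1% in RNA-seq. ALD4 held 52.1%, 52.9%, 41.9% and 47.0% of the ALD TPM in RPF of the same genotypes, and the cytosolic ALD6 45.1%, 44.7%, 55.5% and 50.2%. ALD4 was thus above ALD6 in RPF of the double and msp1 deletions and below it in the pex19 deletion and wild type. In RNA-seq ALD4 was above ALD6 in all 4 genotypes, by 1.5, 1.43, 1.06 and 1.30 times. ALD5 held 2.35% to 2.84% in RPF and 5.04% to 5.75% in RNA-seq. ACS1 held 20.1%, 21.0%, 20.9% and 16.5% of the ACS TPM in RPF and 22.6%, 21.4%, 17.3% and 16.9% in RNA-seq, so ACS2 was the higher by 3.43 to 5.05 times. ACS1 had its lowest share in wild type in both assays, and ADH2 in wild type in RNA-seq only.

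**Figure D2:**
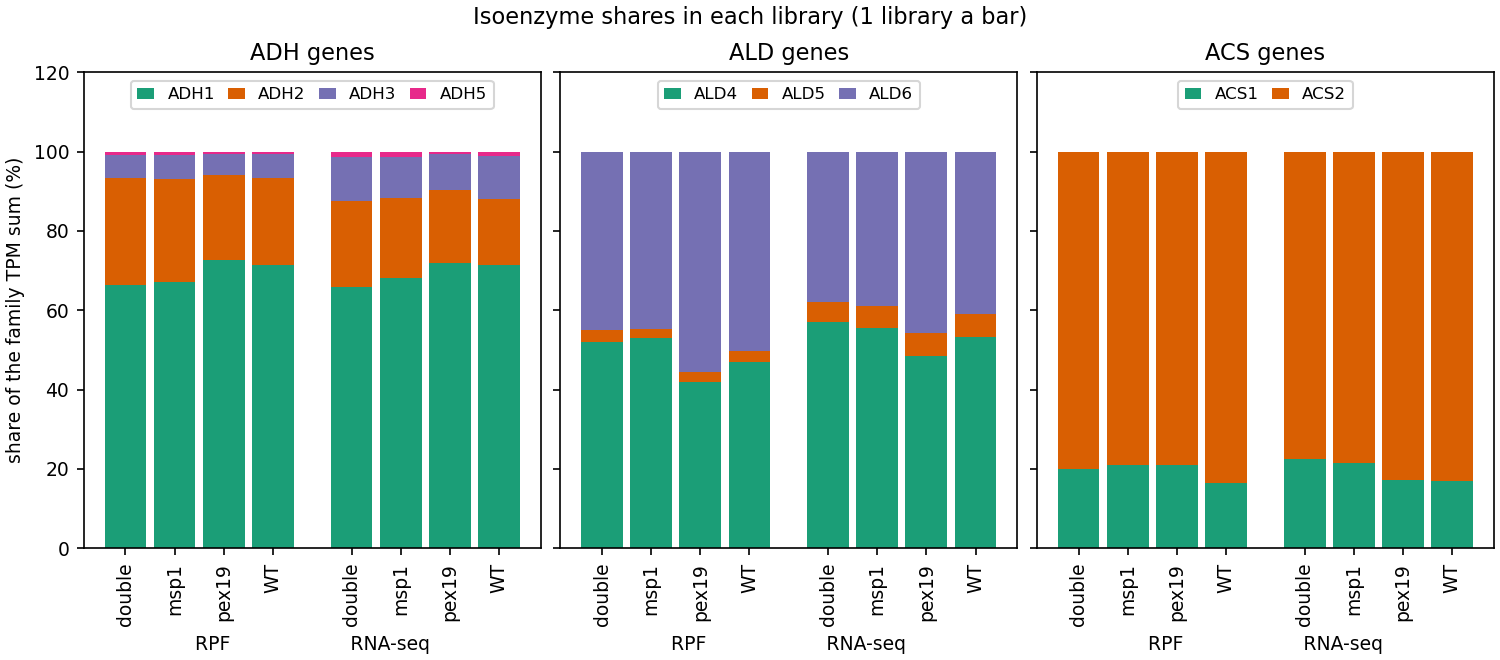
Share (%) of each gene in the TPM sum of the ADH, ALD or ACS genes, 1 bar a library, RPF left and RNA-seq right, in the order double deletion, msp1 deletion, pex19 deletion, wild type. ADH1, with 66.0% to 72.6%, and ACS2 take the larger part everywhere, while ALD4 and ALD6 change places between libraries.

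ADH4, an alcohol dehydrogenase gene known to be expressed at low zinc and not a member, varied far more than the members. It had 1069, 3188, 34.9 and 1409 TPM in RPF of the double, msp1 and pex19 deletions and wild type, against 1622, 1418, 1674 and 1267 TPM for ADH2. ADH4 was thus above ADH2 in the msp1 deletion and wild type, and far below it in the pex19 deletion. Its part in the levels of the members was not tested.

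In the pex19 deletion, most members were somewhat higher than in wild type, ACS1 most of all in RPF and ADH2 and ADH1 in RNA-seq. Comparisons between genotypes used counts scaled within each assay to the library's total times a TMM factor, given as scaled CPM. The factor, a trimmed mean of ratios between libraries, came from genes with a mean of at least 50 reads in that assay. Log2 ratios are given with 95% counting intervals. ADH1 had 7571 scaled CPM in RPF of the pex19 deletion and 5752 in wild type, and 3484 against 2292 in RNA-seq. The log2 ratio was 0.40 (0.36 to 0.43) in RPF and 0.60 (0.57 to 0.64) in RNA-seq. ADH1 was higher in pex19 than in each of the other 3 genotypes in both assays. ADH2 had 2245 scaled CPM in RPF and 895 in RNA-seq of the pex19 deletion, against 1759.9 and 541 in wild type, with log2 ratios of 0.35 (0.29 to 0.41) and 0.73 (0.66 to 0.79). These were the only members at least 1.5-fold (0.585 on the log2 scale) from wild type in either assay, in RNA-seq of this deletion, where 3.75% of the 3737 genes were as much higher. The ADH1 value fell short of the limit under scaling by library totals (0.56) and with TPM rescaled to the listed genes (0.54). In both assays together 0 of 10 members were 1.5-fold higher or lower, against 0.482% of genes in each direction.

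The cytosolic ALD6 also stood higher in the pex19 deletion, at 3833 scaled CPM in RPF and 2007 in RNA-seq against 3209 and 1543 in wild type. Its log2 ratios were 0.26 (0.21 to 0.30) and 0.38 (0.34 to 0.42), while the mitochondrial ALD4 had −0.05 (−0.10 to −0.00) and 0.08 (0.04 to 0.12). ACS1 (YAL054C, chrI:42881-45022) had 490.1 and 362 scaled CPM in RPF and RNA-seq, against 348 and 282 in wild type, with ratios of 0.49 (0.36 to 0.63) and 0.36 (0.26 to 0.46). ACS2 had log2 ratios of 0.08 and 0.32, ACH1 of 0.23 and 0.36, ADH3 of 0.19 and 0.35 and ALD5 of −0.03 and 0.17, RPF first. ADH5, with 141 RPF and 164 RNA-seq reads, had 0.19 (−0.17 to 0.56) and −0.10 (−0.41 to 0.20), which counting error alone could give. Over the 10 members the median log2 ratio was 0.21 in RPF and 0.35 in RNA-seq, against 0.0067 and 0.0106 over the 3737 genes. Above 0 were 8 members in RPF and 9 in RNA-seq, against 51.0% and 51.2% of genes. Together the members took 2.25% of RPF reads and 1.34% of RNA-seq reads in this deletion, against 1.89% and 1.06% in wild type.

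**Figure D3:**
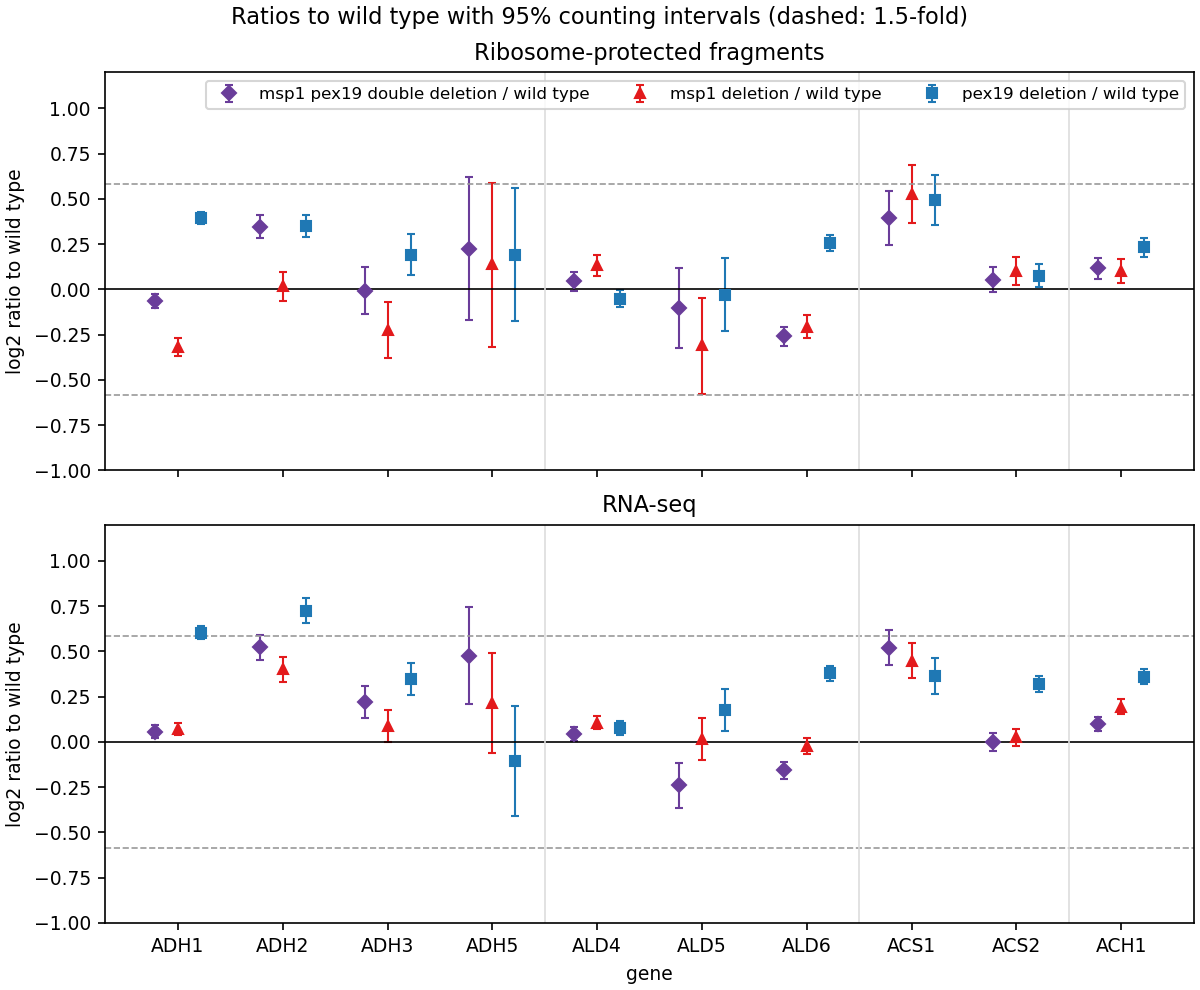
Log2 ratio to wild type of each gene in RPF (top) and RNA-seq (bottom) for the double, msp1 and pex19 deletions, with 95% counting intervals and dashed lines at 1.5-fold. Only ADH1 and ADH2 of the pex19 deletion cross a dashed line, in RNA-seq, and all ACS1 points lie between 0.36 and 0.53.

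In the msp1 deletion ACS1 was the member farthest above wild type in both assays. It had 502 scaled CPM in RPF and 384 in RNA-seq, against 348 and 282 in wild type, with log2 ratios of 0.53 (0.37 to 0.69) and 0.45 (0.35 to 0.55). ADH1 had 4612 scaled CPM in RPF of the msp1 deletion and 5752 in wild type, a log2 ratio of −0.32 (−0.37 to −0.27), while its RNA-seq ratio was 0.07 (0.04 to 0.11). Its RPF level was thus lowest in this deletion although its RNA was not. ADH2 was 0.40 (0.33 to 0.47) in RNA-seq and 0.02 (−0.06 to 0.10) in RPF. ADH3 was −0.23 in RPF and 0.09 in RNA-seq, ALD5 −0.31 and 0.02, and ALD6 −0.21 and −0.02. ALD4 had 0.13 and 0.11, ACH1 0.10 and 0.20, ACS2 0.10 and 0.03, and ADH5 0.14 and 0.21. Under scaling over all listed genes (TMM), which moved the RPF median of all genes to −0.185, the RPF ratios of ADH2, ADH5, ALD4, ACS2 and ACH1 turned negative in the msp1 deletion. ACS1 kept a ratio of 0.327 there and the member median fell to −0.142. Of 10 members 0 were 1.5-fold apart in both assays, against 0.348% of genes higher and 0.187% lower. The RPF ratios spread more in this library, the one with the fewest reads, where 10.1% of genes were at least 1.5-fold higher and 8.3% lower in RPF, against 0.883% and 0.91% in RNA-seq.

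In the double deletion ADH2 and ACS1 were the members farthest above wild type in both assays, and ALD6 was below it. ADH2 had 2238 scaled CPM in RPF and 777 in RNA-seq of the double deletion, against 1759.9 and 541 in wild type, with log2 ratios of 0.35 (0.28 to 0.41) and 0.52 (0.45 to 0.59). ACS1 had 458 and 404, against 348 and 282 in wild type, with ratios of 0.39 (0.25 to 0.54) and 0.52 (0.42 to 0.62). ACS1 had its lowest level of the 4 genotypes in wild type in each assay. ADH2 did so in RNA-seq, while in RPF its 1780 scaled CPM in the msp1 deletion and 1759.9 in wild type were within counting error, and under scaling over all listed genes the msp1 ratio was −0.184. ALD6 had 2679 scaled CPM in RPF and 1383 in RNA-seq, against 3209 and 1543 in wild type, with log2 ratios of −0.26 (−0.31 to −0.21) and −0.16 (−0.20 to −0.11). ADH1 was −0.07 and 0.06, ADH3 −0.01 and 0.22, ADH5 0.22 (−0.17 to 0.62) and 0.47 (0.21 to 0.75), and ALD5 −0.10 and −0.24. ALD4 lay at 0.05 and 0.04, ACS2 at 0.05 and −0.00, and ACH1 at 0.12 and 0.10. The RPF signs of ADH3, ALD4 and ACS2 depended on the scaling of the counts. Here too 0 of 10 members were 1.5-fold apart in both assays, against 0.134% of genes higher and 0.348% lower.

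At a lower limit of 1.2-fold in both assays, chosen after the values were seen, ACS1 was higher in all 3 deletions. ADH2 joined it in the double and pex19 deletions, and ADH1 in the pex19 deletion. That made 2 members of 10 in the double deletion, 1 in the msp1 and 3 in the pex19 deletion, against 2.78%, 4.12% and 4.98% of genes. Lower by as much were 0 members in each deletion, against 2.62%, 4.36% and 4.36% of genes in the same order. All 3 comparisons use 1 pair of wild-type libraries, and low wild-type values of ACS1 or ADH2 would appear in each of them. Loss of both genes was also set against loss of either, where wild type does not enter. There ACS1 had log2 ratios of −0.13 (−0.29 to 0.03) in RPF and 0.07 (−0.02 to 0.16) in RNA-seq against the msp1 deletion, and −0.10 (−0.23 to 0.04) and 0.16 (0.06 to 0.25) against the pex19 deletion. ADH2 had −0.00 (−0.07 to 0.06) and −0.20 (−0.27 to −0.14) against the pex19 deletion. Against the pex19 deletion, the double deletion had lower ADH1, at −0.46 in RPF and −0.55 in RNA-seq, and lower ALD6, at −0.52 and −0.54. These were the only members past 1.2-fold in both assays, where 5.08% of genes were as much lower and 5.43% as much higher. ADH5 was 0.03 in RPF and 0.58 (0.29 to 0.87) in RNA-seq in that comparison. Against the msp1 deletion, ADH2 was 0.33 in RPF and 0.12 in RNA-seq, ADH1 0.25 and −0.02, and ALD5 0.21 and −0.26, and 0 members passed 1.2-fold in both assays, where 3.08% of genes were as much higher and 4.55% as much lower. The nonadditive value, which is the log2 ratio of the double deletion to wild type less the ratios of the msp1 and pex19 deletions to it, was above 0 for 2 members in RPF and 1 in RNA-seq, against 50.0% and 49.2% of genes. It was lowest for ACS1 in RPF, at −0.63 (−0.83 to −0.42), and for ADH1 in RNA-seq, at −0.62 (−0.67 to −0.57), with ADH2 at −0.60 (−0.70 to −0.51). In RNA-seq the median over the members was −0.39, against −0.0072 over the 3737 genes. In RPF it was −0.12, and it turned to 0.0146 under scaling over all listed genes. Since all 4 libraries of an assay enter the value, it repeats what the comparisons above show.

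Across the 4 genotypes the members differed in how steady they were. ALD4 (YOR374W, chrXV:1039840-1041399) varied least in RNA-seq, where its highest library was 1.08 times its lowest, with 2154, 2251, 2209 and 2092 scaled CPM in the double, msp1 and pex19 deletions and wild type. ACS2 (YLR153C, chrXII:445524-447575) varied least in RPF, by 1.07 times, with 1744, 1803, 1772 and 1680.4 in the same genotypes. The widest ranges were those of ADH1 in RPF, by 1.64 times, and ADH2 in RNA-seq, by 1.65 times. The median over the 3737 genes was 1.38 times in RPF and 1.28 times in RNA-seq. By distance over the 6 log2 ratios to wild type, the genes most like ADH1 among 3736 others were VMA7, a subunit of the vacuolar ATPase, MSS2, a factor for export of a mitochondrial oxidase subunit, and PCS60, a peroxisomal acyl-CoA synthetase-like protein, at 0.252 to 0.283. Genes like ADH2 by the same measure included TPO1, a polyamine transporter, at 0.297 and THI80, thiamine pyrophosphokinase, at 0.375. The median distance was 1.01 for ADH1 and 1.25 for ADH2.

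Most members carried more footprints per RNA than the median gene. This quantity is the log2 ratio of scaled RPF to scaled RNA-seq reads, minus its median over the 3737 genes. In wild type it was 2.01 (1.94 to 2.08) for ADH2, above 99.3% of genes, and 1.64 (1.60 to 1.68) for ADH1, above 97.0%. ALD6 had 1.37 (1.32 to 1.42), above 93.4% of genes. These 3 lay in the highest 10% of genes in all 4 genotypes, joined in the pex19 deletion by ADH5 on 141 RPF reads. ALD4, ADH3, ADH5, ACH1, ACS2 and ACS1 lay between 0.62 and 0.89 in wild type, and ALD5 at 0.06 (−0.11 to 0.22). ALD5 had 0.15 (−0.04 to 0.34) in the double deletion, −0.32 (−0.56 to −0.09) in the msp1 and −0.17 (−0.34 to −0.01) in the pex19 deletion. The median over the 10 members was 0.70, 0.69, 0.73 and 0.81 in the double, msp1 and pex19 deletions and wild type. ADH1, ALD6 and ADH2, in that order, also had the highest codon adaptation index of the members. The index was computed against 132 ribosomal protein genes and is higher where codons are those of such genes. It was 0.826, 0.590 and 0.566, above 98.5%, 94.3% and 93.7% of genes, against a median of 0.210. Among the other members the orders differed. ACS2 came next in the index, at 0.456, above 91.9% of genes, with 0.66 footprints per RNA on the log2 scale in wild type. ACH1 and ALD5 were lowest in the index, at 0.265 and 0.267, and ACH1 had 0.76 footprints per RNA on that scale. Footprints of ADH1 and ADH2 include those in the shared run, so their separate values carry the same uncertainty as their levels.

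Relative to the median gene, ADH1, ADH2, ADH3, ALD4, ALD6 and ACH1 had fewer footprints per RNA in every deletion than in wild type. The share of all genes lower in every deletion was not computed. For ADH2 the value was 1.8, 1.58 and 1.62 in the double, msp1 and pex19 deletions, against 2.01 in wild type, and the counting intervals of the deletions did not reach that of wild type. For ADH1 it was 1.48, 1.2 and 1.41, against 1.64, again without overlap. For ALD6 it was 1.23, 1.14 and 1.22, against 1.37, and for ADH3 0.54, 0.44 and 0.63, against 0.81. ALD4 had 0.85, 0.87 and 0.74, against 0.89, and ACH1 0.74, 0.62 and 0.61, against 0.76. The intervals overlapped those of wild type for ADH3 in the pex19 deletion, for ALD4 in the double and msp1 deletions and for ACH1 in the double deletion. The same wild-type pair of libraries enters each of these differences. Among 3737 genes the changes of ADH2 stood at the percentiles 22.1, 17.0 and 15.4 and those of ADH1 at 28.3, 16.6 and 27.4 in the same order, so they were not extreme. The changes of ALD4 stood at 47.4, 51.7 and 35.1 and those of ACH1 at 49.9, 39.9 and 35.3. Before the median was subtracted, the change was above 0 for ALD4 in the double and msp1 deletions and for ACH1 in the double deletion. Of 10 members 8 were lower than wild type in each deletion, against 53.3%, 54.2% and 50.9% of genes in the double, msp1 and pex19 deletions. In the pex19 deletion ACS2 had 0.39 (0.33 to 0.44) against 0.66 (0.60 to 0.71) in wild type, a change at percentile 24.7. ACS1 had 0.73 (0.61 to 0.83) there against 0.62 (0.49 to 0.75), at percentile 61.4, and its intervals overlapped.

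**Figure D4:**
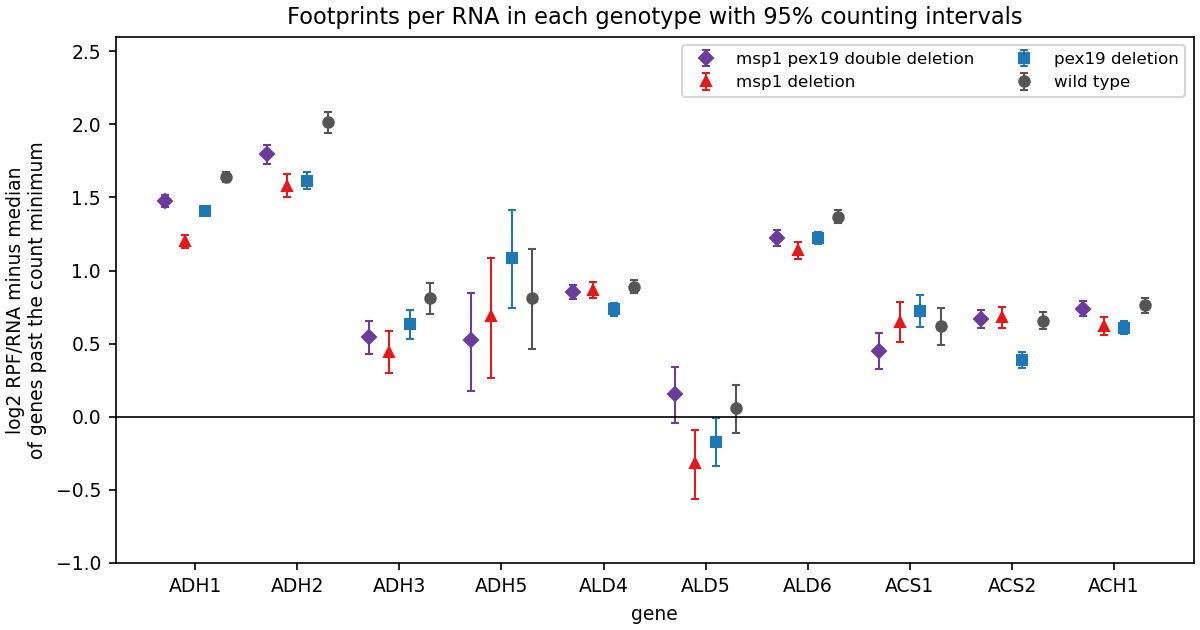
Log2 RPF over RNA-seq, minus the median of 3737 genes, with 95% counting intervals for each gene in the double, msp1 and pex19 deletions and wild type. ADH2, ADH1 and ALD6 lie above 1.1 in every genotype, wild type being highest of the 4 for each. ALD5 is the lowest gene in every genotype, from −0.32 in the msp1 deletion to 0.15 in the double deletion.

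The genes around the route were read from lists. Of 8 measured other alcohol and aldehyde dehydrogenase genes, ADH4 alone was 1.5-fold apart from wild type in both assays, higher in the msp1 deletion, where 0.348% of genes were as much higher, and lower in the pex19 deletion, where 0.482% were as much lower. Its log2 ratios, RPF first, were −0.41 and −0.27 for the double deletion, 1.03 and 1.02 for msp1 and −5.37 and −3.46 for pex19. Below wild type were 7 of these 8 in RPF and 6 in RNA-seq of the double deletion, against 48.3% and 52.3% of genes. In the msp1 deletion they were 4 and 3, against 48.9% and 50.5%, and in the pex19 deletion 4 and 5, against 49.0% and 48.8%. Of 9 measured regulators of ethanol use 0 were 1.5-fold apart in both assays in any deletion, where 0.134% to 0.482% of genes were as much higher and 0.187% to 0.482% as much lower. ADR1 had log2 ratios of 0.24, 0.17 and 0.04 in RPF and 0.10, −0.00 and −0.00 in RNA-seq in the double, msp1 and pex19 deletions. CAT8 had −0.10, −0.30 and −0.00 in RPF and 0.15, 0.13 and −0.12 in RNA-seq. In RNA-seq both activators were closer to wild type than ADH2 or ACS1 in every deletion. In RPF of the msp1 deletion both were farther from it than ADH2, which had 0.02. SIP4, another listed regulator, had 0.74, 0.12 and 0.97 in RPF, on 42 wild-type reads, and 0.21, 0.15 and 0.30 in RNA-seq. The part of the regulators in the levels of the members was not tested.

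Of 10 genes that use or transfer acetyl-CoA, 8 in the double deletion, 9 in the msp1 and 10 in the pex19 deletion were above wild type in both assays, against 27.9%, 28.5% and 28.1% of genes. Under scaling over all listed genes they were 7, 7 and 10, and by library totals 8 in each. In the pex19 deletion their median log2 ratio was 0.51 in RPF and 0.48 in RNA-seq, with CIT1 in both assays and ERG10 in RNA-seq within counting error of wild type. CIT2, the peroxisomal citrate synthase gene, was past 1.5-fold in both assays, where 0.482% of genes were as much higher, with log2 ratios of 0.92 (0.82 to 1.01) and 0.90 (0.83 to 0.97). CAT2, carnitine acetyltransferase, had 0.77 and 0.50, CRC1, the mitochondrial carnitine carrier, 0.52 and 0.78, YAT2, another carnitine acetyltransferase, 0.58 and 0.54, and ACC1, acetyl-CoA carboxylase, 0.50 and 0.60. Medians of this list were 0.11 and 0.25 in the double deletion and 0.43 and 0.14 in the msp1 deletion. CIT1, which encodes the mitochondrial citrate synthase, had log2 ratios of −0.07, 0.15 and 0.03 in RPF and 0.02, 0.01 and 0.02 in RNA-seq in the double, msp1 and pex19 deletions. Of 12 other targets of Adr1 or Cat8, 5 were 1.5-fold higher than wild type in both assays in 1 deletion each, 2 in the double, 1 in the msp1 and 2 in the pex19 deletion, against 0.134%, 0.348% and 0.482% of genes. FOX2, a peroxisomal enzyme of fatty acid oxidation, had log2 ratios of 0.78 and 0.62 in the double deletion, and CTA1, the peroxisomal catalase, 0.70 and 0.89. POT1, the peroxisomal thiolase, had 0.83 and 0.585 in the msp1 deletion, at the limit in RNA-seq, on 65 RPF reads there and 69 in wild type. In the pex19 deletion ICL1, the isocitrate lyase of the glyoxylate cycle, had 1.00 and 1.02 and the malate dehydrogenase gene MDH2 had 0.92 and 0.68. Medians over the 12 targets were 0.15 and 0.12 in the double, 0.22 and 0.11 in the msp1 and −0.02 and −0.02 in the pex19 deletion. Above wild type in both assays were 8 targets in the double, 8 in the msp1 and 2 in the pex19 deletion. Of all genes 27.9%, 28.5% and 28.1% were so. Under scaling over all listed genes the targets were 7, 6 and 2. In the pex19 deletion 7 of the 12 targets were below wild type in RPF and 7 in RNA-seq, against 49.0% and 48.8% of genes. The lowest value was −0.24 in RPF and −1.01 in RNA-seq. Of 4 acetate and monocarboxylate carrier genes, ADY2 and JEN1 passed the count minimum, and 0 were 1.5-fold apart from wild type in both assays. Among all genes 0.134% to 0.482% were as much higher and 0.187% to 0.482% as much lower. ADY2, an acetate transporter gene, had 113, 27, 115 and 94 RPF reads in the double, msp1 and pex19 deletions and wild type, and the double deletion was above the msp1 deletion by 1.43 (0.84 to 2.12) in RPF and 0.79 (0.44 to 1.16) in RNA-seq on the log2 scale. In that comparison 0.268% of genes were at least 1.5-fold higher in both assays, and JEN1 had 0.03 and 0.10.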

How the data were processed

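Saccharomyces cerevisiae of 4 genotypes was profiled with 1 RNA-seq and 1 RPF library each. The submitters' processing notes name cutadapt 1.8, STAR 2.5 and build R64 (sacCer3), the build of the reference used here. The tool that counted reads, its use of strand and its handling of reads with several matches are not described in any source used here. The authors' deposited read counts are whole numbers with a lowest value of 1. The deposited TPM values are length-scaled by the authors. Over the listed genes they sum to 813998 to 911428 in RNA-seq and 992524 to 997039 in RPF, so TPM served for levels and shares within a library. The double deletion's RNA-seq file also holds deposited RPM and RPKM values, per the file headers, which were not used.

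TMM factors (edgeR 4.0.16 under R 4.3.3) were computed for each assay on its own, over genes whose mean reached 50 counts. Log2 ratios used a pseudocount of 1 read, and 95% intervals are exact conditional binomial (Clopper-Pearson). Those of the nonadditive value (double minus both single deletions plus wild type, in log2) are normal approximations from Poisson variances. The reads carry no molecular identifiers and need not be independent molecules, so intervals cover counting error only. DESeq2 1.42.0 size factors were 1 of the alternatives. The procedure was tested on simulated data. Members, lists and the 50-count restriction were chosen with earlier results of these data known. Every member was described. List genes were named when 1.5-fold apart in both assays, with up to 4 others a list, and the 3 genes nearest to each of the 2 most variable members were named, except 1 that is not reported here.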

Additional observations from a re-analysis of the deposited data

Results flagged for a closer look

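For 4 members both libraries had ratios of one sign on deletion of a gene in the presence of the other gene, and of the opposite sign in its absence. These differences were not tested, and each nonadditive value uses all 4 libraries of its assay. The share of all genes that meet the same condition was not computed. Ratios of opposite sign also fix the sign of the nonadditive value, so that sign adds nothing to the condition. ACH1 was the only member whose 4 ratios all had counting intervals apart from 0. On loss of MSP1 it had log2 ratios of −0.11 in RPF and −0.26 in RNA-seq in the pex19 deletion background, and 0.10 and 0.20 against wild type, a nonadditive value of −0.22 (−0.30 to −0.13) in RPF and −0.46 (−0.51 to −0.40) in RNA-seq. On loss of PEX19, ALD6 had −0.05 (−0.12 to 0.01) and −0.13 against the msp1 deletion and 0.26 and 0.38 against wild type, with nonadditive values of −0.31 (−0.39 to −0.23) and −0.51 (−0.58 to −0.45). ADH2 on loss of MSP1 had −0.00 and −0.20 against the pex19 deletion and 0.02 and 0.40 against wild type, with −0.02 (−0.12 to 0.08) and −0.60 (−0.70 to −0.51), so its RPF values did not leave counting error. ACS2 met the condition for both genes, with nonadditive values of −0.12 (−0.23 to −0.02) and −0.35 (−0.41 to −0.28). On loss of MSP1 it had −0.02 (−0.09 to 0.05) and −0.32 (−0.37 to −0.27) against the pex19 deletion and 0.10 (0.02 to 0.18) and 0.03 (−0.02 to 0.07) against wild type. On loss of PEX19 it had −0.05 (−0.13 to 0.03) and −0.03 (−0.08 to 0.02) against the msp1 deletion and 0.08 (0.01 to 0.14) and 0.32 (0.27 to 0.37) against wild type. With TMM factors from all listed genes, the RPF ratios of ACH1, ADH2 and ACS2 in the msp1 deletion were negative, that of ALD6 between the double and msp1 deletions was positive, and the RPF nonadditive value of ACS2 was 0.00599.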

How the results depend on the processing

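The count of members 1.5-fold apart from wild type in both assays was 0 in each deletion. It stayed 0 with library totals, TMM over all listed genes, TMM without ribosomal protein genes, DESeq2 size factors, pseudocounts of 0.1 and 5 and no count minimum. It was 0 also at a mean of at least 200 counts (which removed ADH5), at a limit of 2-fold, with deposited TPM as listed or rescaled, and with a linear trend on length and GC taken out. The 200-count minimum and the 2-fold limit could not add members. Dropping the minimum could not either, since all 10 members had passed it. Without the msp1 RPF library in the TMM step it was 0 for the double and pex19 deletions. The limit of 1.2-fold, a lower bar that can only add members, gave 2 in the double, 1 in the msp1 and 3 in the pex19 deletion. That limit, the rescaled TPM and the TMM step without the msp1 RPF library were chosen after seeing the data. Of 1170 recomputed member ratios 137 left their counting interval and 49 changed sign, with 31 and 15 of these under TMM over all listed genes and 46 and 8 under deposited TPM. These settings shifted the median of all genes in the msp1 RPF comparison with wild type by −0.199 and 0.146. No value past 1.5-fold changed sign among the 10 alternatives, but this is no check of stability. Such a value has a log2 size of at least 0.585. The largest move of any ratio was 0.201, under TMM over all listed genes, which is too small to change its sign. Shares from counts per base of coding sequence moved by at most 0.0353 percentage points. The deposited TPM is itself scaled to gene length, so this nearly repeats the same calculation and is no check of stability. It also does not bear on how reads that match both ADH1 and ADH2 were counted. No paired analysis was possible because each genotype has 1 library per assay, and for the same reason no replicate could be left out. ADH5 was limited by depth, with 66 to 141 RPF reads.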

Other observations

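ALD2 and ALD3, adjacent aldehyde dehydrogenase paralogues that are not members, were listed at equal read counts in 2 of the 4 RNA-seq libraries. ALD2 had 141, 251, 160 and 212 reads and ALD3 163, 251, 139 and 212 in the double, msp1 and pex19 deletions and wild type. In RPF the counts differed in every library, with 67, 51, 85 and 90 for ALD2 and 60, 111, 124 and 99 for ALD3. Their coding sequences were identical at 1396 of 1521 aligned bases (91.8%), with a longest identical run of 329 bases, so short reads can often not be told apart between them.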
